A study of Mus musculus with 6 samples.

Results

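The proteasome subunit genes were taken as the protein-coding mm10 RefSeq genes whose symbol is Psma, Psmb, Psmc, Psmd or Psme followed by a digit, without Psmb8 and Psmb9, and 44 of 21887 protein-coding genes on the assembled chromosomes met this rule. The rule used gene symbols and no measured value. It also takes in 3 symbols that do not name a subunit. Psmc3ip encodes a meiotic recombination partner protein named after its binding to Psmc3. Psme3ip1 is named after its binding to Psme3, and Psme2b is a retrogene copy of Psme2. Psmd5, Psmd9 and Psmd10 were kept with the subunits by name, though they encode assembly chaperones, as given below.

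The proteasome is the protease that degrades ubiquitin-tagged proteins in the cytoplasm and nucleus. Its core particle is a barrel of alpha subunits (Psma), which gate the entry, and beta subunits (Psmb), of which a few carry the cutting sites. The regulatory particle binds, unfolds and feeds in the tagged protein with a ring of ATPases (Psmc) and a set of subunits without ATPase activity (Psmd), and the Psme genes encode other activators that can cap the core. The genes are expressed in nearly every cell type, and immune cells also use interferon-inducible catalytic subunits. The assay was ATAC-seq: a transposase, Tn5, inserts sequencing adapters where chromatin is accessible.

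The cells were regulatory T cells (Tregs), taken by a sort on CD4+CD25+GITR+ out of lymph nodes that drain a B16.F10 melanoma, a transplanted mouse tumour line, 14 days after 300000 cells had been injected under the skin. There were 3 libraries from C57BL6 mice (WT, replicates 2, 4 and 6) and 3 from il33-/- mice (KO, replicates 1, 2 and 4), and all mice of both groups carried the tumour. The il33-/- allele is not limited to one cell type by the labels, no age or sex is given there, and they do not say whether a library is 1 mouse or a pool. The question of the study was how chromatin of tumour-exposed Tregs differs when the cytokine interleukin-33 is missing.

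The libraries held 12.9 to 15.2 M tags after filtering in WT and 4.72 to 10.3 M in KO, so each KO library was shallower than each WT library. In comparisons of peak number, height or length, genotype and sequencing depth therefore cannot be told apart. The lists held 52836 to 55939 peaks in WT and 37266 to 42738 in KO. On chromosome Y, WT lists had 8 to 9 peaks and KO lists 0. The labels give no sex, so whether the groups also differ in sex was not tested. Such a difference could not be told apart from genotype either. The deleted gene Il33 had 1 peak in each of the 6 libraries, which does not check the genotype because the position of the deletion was not known here. Of 7 T cell and Treg markers, 6 had a peak in or within 1 kb of the gene in all 6 libraries, Foxp3, Cd4, Il2ra and Ctla4 among them, and Tnfrsf18 lacked one in KO replicate 4. Of 16 markers of B, CD8 T, NK, myeloid and melanoma cells, 8 had no peak in any library, Ms4a1, Csf1r, Lyz2, Tyr and Dct among them, and 5 had one in all 6 (Pax5, Cd8b1, Cd14, Mlana and Pmel). The other 3, Cd79a, Cd8a and Klrb1c, had one in 4 or 5 libraries of both genotypes. The part of such cells in the values below was not tested.

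Almost all proteasome genes lay in open chromatin in every library. A gene was counted as having a peak when a peak overlapped it, or 1 kb on either side, by at least 1 bp. In each of the 3 WT and in KO replicates 1 and 2, 41 of the 44 genes had a peak, and in KO replicate 4 there were 42. The same 41 genes had a peak in all 6 libraries, which is 93.2% of the 44 genes, where the share over all protein-coding genes was 59.4%. Among ribosomal protein genes the share was 96.4% (80 of 83), and among the Nduf genes of mitochondrial complex I 95% (38 of 40), so the 3 shares lay close together.

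The exceptions were Psmb11, Psme2b and Psma8. Psmb11, the beta subunit of cortical thymic epithelium, had no peak in any of the 6 libraries, although it is the next protein-coding gene after Psmb5 on chromosome 14 (54625310 to 54629556, against 54614120 to 54617995 for Psmb5), which was open in all 6. Psme2b (chromosome 11, 48945345 to 48946410) had none either. Psma8, the alpha subunit of testis (chromosome 18, 14706135 to 14762301), had 1 peak of 205 bp in KO replicate 4, at 14761059 to 14761263, near the far end of the gene, with a pileup of 10 tags, and none in the other 5 libraries. Over all protein-coding genes, 31.7% had no peak in any library. The sources used here do not say how reads matching more than 1 place, such as Psme2b and its parent Psme2, were treated.

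**Figure D1:**
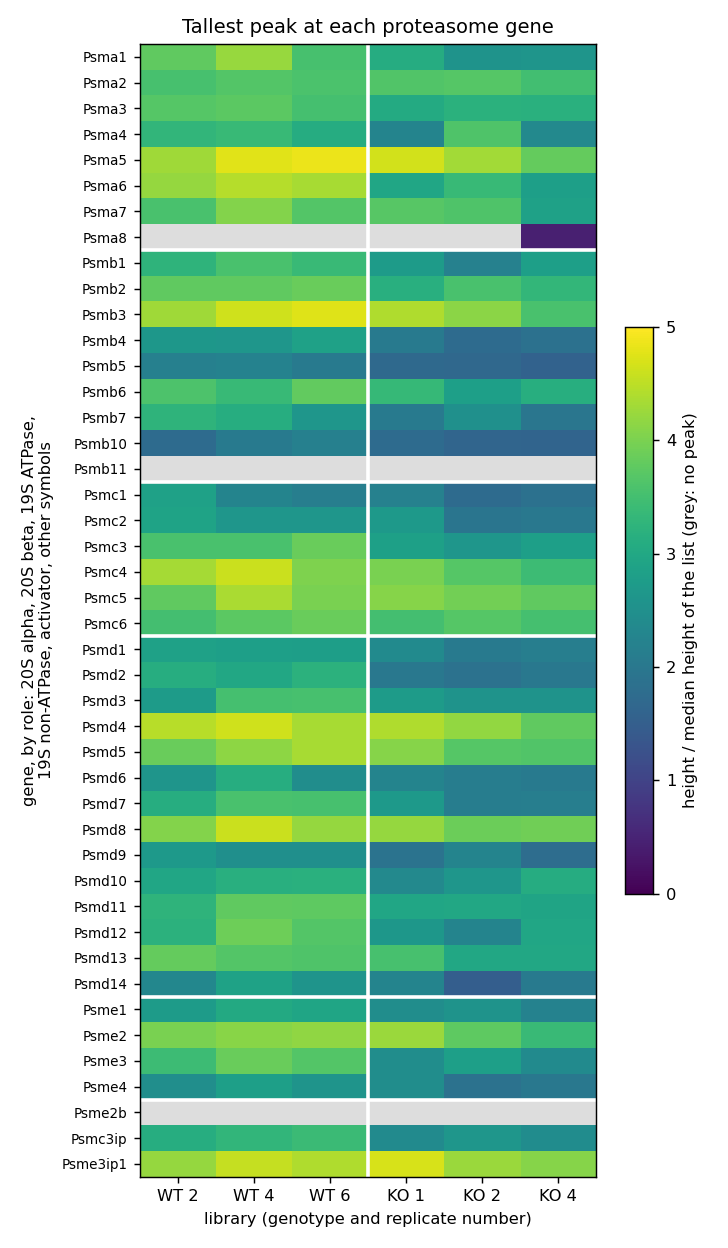
Height of the tallest peak at each of the 44 genes (rows, by role) in each library (columns, WT on the left, KO on the right), as the pileup at the summit divided by the median pileup of that library's list; grey marks no peak. Psma5, Psmb3, Psmd4 and Psme3ip1 are the brightest rows, and Psma8 is grey in 5 libraries and Psmb11 and Psme2b in all 6.

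The open chromatin sat at the start of the gene. Start sites and strands from RefSeq (GRCm38.p6, the assembly behind mm10) were at hand for 37 of the 44 genes, 35 of which had a peak in all 6 libraries. For 34 of these 35 genes (97.1%) a start site lay inside the tallest peak in every library, where the share over 10497 protein-coding genes was 67.2%. It was 90.0% among ribosomal protein genes and 90.9% among Nduf genes. The median distance from summit to nearest start was 47.0 bp over the 35 genes and 98.0 bp over all genes. For ribosomal protein genes it was 46.5 bp and for Nduf genes 51.0 bp. At Psmb6, a catalytic beta subunit gene, the summit lay at -20 to -6 bp from the start in all 6 libraries (negative, before the start). At Psma7 it lay at -8 to 9 bp.

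Psmb10, the interferon-inducible catalytic subunit of the immunoproteasome, was the exception. Its peak in WT ran over 1605, 1642 and 1606 bp, from before the start far into the gene (chromosome 8, 105936915 to 105938519 in WT replicate 2), with the summit 1297 bp past the start as the median of the 6 libraries. In KO replicate 1 it was called as 2 peaks, the taller of them 448 bp long, and in KO replicate 2 the peak of 1373 bp stopped short of the start. Psme2, an interferon-inducible activator subunit gene, had its summit at -555 to -508 bp from its start, inside a peak that also covers the start of Rnf31, which lies 641 bp away and runs in the other direction. These summits kept their place in both genotypes at Psme2, while at Psmb10 that of KO replicate 2 lay 236 bp past the start.

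**Figure D2:**
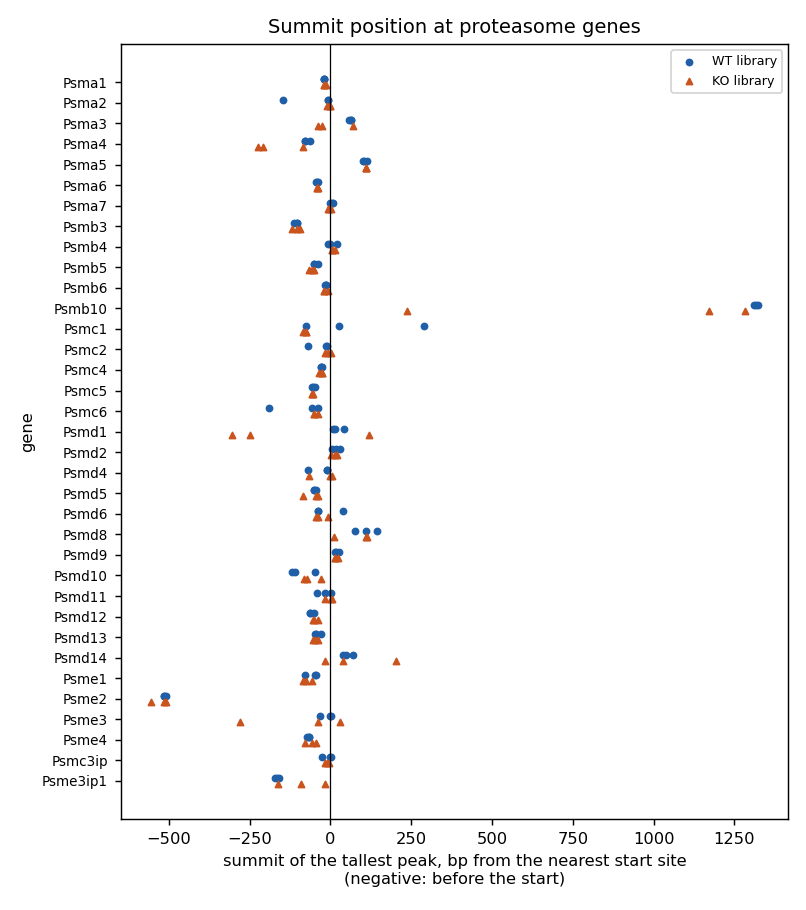
Distance in bp from the nearest RefSeq start site to the summit of the tallest peak, 1 point per library (circles WT, triangles KO), for the 35 genes with a start site and a peak in all 6 libraries. Most points lie close to 0, with Psme2 at -555 to -508 bp and Psmb10 at up to 1323 bp.

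Several of these promoters are shared with a neighbour. Of the 37 genes with a start site, 7 (18.9%) had the start of another protein-coding gene on the opposite strand within 1 kb upstream, against 8.48% of 17492 genes. The pairs were Psma7 with Ss18l1 at 19 bp, Psmd13 with Sirt3 at 85 bp, Psmc5 with Ftsj3 at 101 bp, Psmd10 with Atg4a at 196 bp, Psma2 with Mrpl32 at 205 bp, Psme3ip1 with Rspry1 at 215 bp and Psme2 with Rnf31. The tallest peak of WT replicate 2 overlapped another protein-coding gene at 9 of the 41 genes, these 7 and Psma4 and Psmb3. At those genes a peak cannot be assigned to 1 of the partners.

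The promoter windows were searched for short motifs of factors known to act at broadly expressed or stress-induced promoters, over 41 start entries of the 37 genes in windows from 250 bases before to 50 after the start, whether or not the gene had a peak (Psmb11 and Psme2b had none). Both strands were searched, and matches of different motifs could overlap. The core of the ETS site, CCGGAAG, was found in 36.6% of the proteasome promoters and in 11.6% of 21263 protein-coding promoters, and 14 of its 20 matches began between 60 bases before and 20 bases after the start. Psmc3ip and Psme3ip1, which do not name a subunit, are among the genes with this core. The core of the antioxidant response element, TGACNNNGC, through which Nfe2l1 is known to raise proteasome genes when the proteasome is inhibited, was in 14.6% against 13%. The GC box GGGCGG was in 56.1% against 46.2%, CCAAT in 36.6% against 38.2%, and the YY1-type AAGATGGCG in 4.88% against 1.83%. The NRF1 palindrome was in 2.44% against 1.33%, the interferon-stimulated core in 9.76% against 3.35%, at Psmd4, Psmd9, Psmb3 and Psme1, and the NF-kB type in 0 of 41 against 0.423%. The median GC content was 57.3% in the proteasome and 56.3% in all promoters, and the median number of CG dinucleotides was 19 and 13. These are matches of letters, not measured binding. No motif share was taken for ribosomal protein or Nduf genes, and all promoters include those of genes without a peak.

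The 3 promoters with the antioxidant response core wholly within 60 bases before the start are shown because this element is the one best known for these genes. They are the 100 bases before the start on the gene's own strand, from RefSeq GRCm38.p6, with the core in capitals, and lie at chr14:54617996-54618095 (minus strand) for Psmb5, chr11:70525257-70525356 (plus) for Psmb6 and chr5:123228090-123228189 (plus) for Psmd9. Each window lies inside the tallest peak of its gene in all 6 libraries.
Psmb5: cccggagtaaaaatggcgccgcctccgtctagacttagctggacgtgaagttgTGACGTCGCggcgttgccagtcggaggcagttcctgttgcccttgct
Psmb6: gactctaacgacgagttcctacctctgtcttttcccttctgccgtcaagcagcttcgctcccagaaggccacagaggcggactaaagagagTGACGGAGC
Psmd9: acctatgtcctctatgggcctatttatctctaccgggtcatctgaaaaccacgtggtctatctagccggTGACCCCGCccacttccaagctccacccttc

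The ETS core was the motif whose share was furthest from that of all promoters, so 4 promoters with it within 60 bases before the start are shown from the same window, Psmd2 and Psmc1 because their heights are described below and the others as further examples, with the core (or its reverse complement CTTCCGG) in capitals. They lie at chr12:100110102-100110201 (plus) for Psmc1, chr16:20651552-20651651 (plus) for Psmd2, chr14:14120946-14121045 (minus) for Psmd6 and chr11:30771675-30771774 (plus) for Psme4, and all 4 windows lie inside the tallest peak in all 6 libraries.
Psmc1: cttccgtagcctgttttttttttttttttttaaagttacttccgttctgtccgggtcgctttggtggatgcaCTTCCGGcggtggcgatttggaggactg
Psmd2: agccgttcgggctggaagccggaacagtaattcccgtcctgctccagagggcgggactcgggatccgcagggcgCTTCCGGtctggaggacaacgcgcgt
Psmd6: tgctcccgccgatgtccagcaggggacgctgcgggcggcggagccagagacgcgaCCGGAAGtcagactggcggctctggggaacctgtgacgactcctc
Psme4: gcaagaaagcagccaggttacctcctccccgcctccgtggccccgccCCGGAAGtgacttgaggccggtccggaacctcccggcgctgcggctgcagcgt

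Peak height was taken at the tallest peak of each gene, as the authors' pileup, the number of extended tags over the summit, divided by the median pileup of the same list. The list medians were 28, 27 and 29 tags in WT replicates 2, 4 and 6, and 20, 16 and 23 in KO replicates 1, 2 and 4. On this scale the median of the 41 proteasome genes was 3.29, 3.56 and 3.55 in the WT and 2.75, 2.62 and 2.83 in the KO libraries, and that of the 13004 protein-coding genes with a peak in all 6 libraries was 2.93, 3.15 and 3.0, and 2.55, 2.38 and 2.39. The proteasome peaks were thus somewhat taller than those of the median gene in each of the 6 libraries. Heights are the peak caller's own values and are described, not tested.

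On the scale of the list medians, 24 of the 41 genes (58.5%) had all KO heights below all WT heights and 0 the reverse, a direction that flips with the divisor as given below, while over all genes the shares were 55.3% and 0.108%. The median log2 KO to WT ratio was -0.28 over the 41 genes, from -0.66 to 0.00, and -0.28 over all genes. The proteasome genes therefore sat where the other genes sat, 22 of the 41 below and the rest above the median of all genes. On this scale the ribosomal protein genes had a median ratio of -0.22 and the Nduf genes of -0.19, with 60% and 57.9% of their genes lower in every KO library.

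The direction of this shift came with the divisor. Divided by the median of the regions called in all 6 libraries, 1 of the 41 genes was lower and 8 were higher in every KO library (6.16% and 22.5% of all genes), with a median log2 ratio of 0.066 in the proteasome genes and 0.068 in all. Divided by the height at the median gene, 3 were lower and 8 higher (8.29% and 18.7% of all genes), with medians of 0.030 and 0.032. Per M tags, 0 were lower and 2 higher (2.16% and 3.86%), with medians of 0.089 and 0.091. A divisor shifts all genes of a library alike, so under each of the 4 the proteasome median minus that of all genes was -0.00205. No lower or higher height of the family as a whole can be read from these lists.

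**Figure D3:**
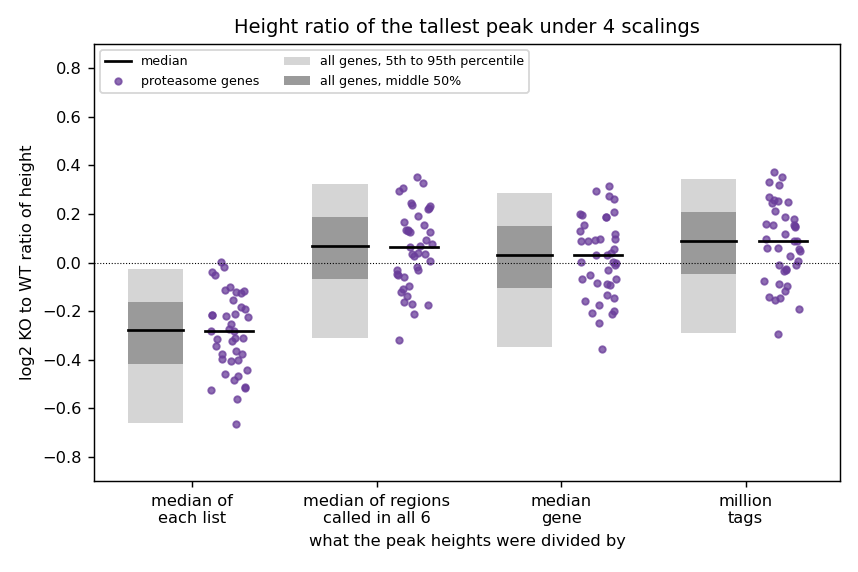
Log2 KO to WT ratio of the height of the tallest peak (mean of log2 over 3 KO minus 3 WT libraries) under 4 divisors, for the 41 proteasome genes (points, black line the median) and for the 13004 genes with a peak in all 6 libraries (bars, black line the median). Most points lie within the light bars of all genes, with Psmd2 just below them and Psma2 and Psme3ip1 just above. With the list medians all points but Psma2 lie below 0 (median -0.28). With the other 3 divisors the medians are 0.030 to 0.089.

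Height and ratio went together across the genes. Among the 10 tallest of the 41 the median log2 ratio was -0.12 and 2 were lower in every KO library on the list-median scale, and among the 10 lowest it was -0.35 with 7. Pearson's r between mean log2 height and log2 ratio was 0.604 (Spearman's rho 0.663) across the 41 genes and 0.523 (0.586) across all 13004. The points share 6 libraries of unequal depth, both measures come from the same heights, and genes are not independent replicates, so these coefficients are descriptions. Psma6, an alpha subunit gene, was a tall exception with a ratio of -0.51 ± 0.08 (SE, n = 3 against 3).

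Of the 8 alpha subunit genes, 7 had a peak in all 6 libraries, with mean heights in WT of 3.25 to 4.64 times the list median. Psma5 (chromosome 3, 108256926 to 108279952) had the tallest peak of the 44 genes by the mean over the 6 libraries, at 4.29, 4.78 and 4.86 in WT and 4.65, 4.31 and 3.83 in KO libraries, in the order of replicates used throughout. Its groups overlapped, and it was not the tallest in each library, since Psmd4 was taller in WT replicate 2 and Psme3ip1 in KO replicates 1 and 4. Psma2 (chromosome 13, 14613242 to 14625673) had the highest log2 ratio of the 41 genes, 0.00 ± 0.03 (SE), with 3.54, 3.67 and 3.59 in WT and 3.65, 3.69 and 3.48 in KO. These libraries overlapped on the list-median scale, and all 3 KO libraries lay above all 3 WT libraries under the other 3 divisors. The same held at Psmc6. Psma2 shares its promoter with Mrpl32. Per M tags, Psma2 stood at 7.58, 7.66 and 6.83 in WT and 8.89, 12.5 and 7.76 in KO, of which 12.5 is the shallowest library.

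The beta subunit genes included Psmb10 and Psmb5, the lowest of the 41. Of 9 genes, 8 had a peak in all 6 libraries, with mean WT heights of 1.99 to 4.56. Psmb5, which encodes the subunit with chymotrypsin-like activity and is the target of proteasome inhibitor drugs (chromosome 14), stood at 2.18, 2.22 and 2.03 in WT and 1.70, 1.69 and 1.57 in KO. Psmb10 (chromosome 8, 105935728 to 105938392) was lower still, at 1.75, 2.04 and 2.17 in WT and 1.75, 1.62 and 1.61 in KO. The groups did not overlap at Psmb5 and met at 1.75 at Psmb10.

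The other catalytic genes had taller peaks. Psmb6, with caspase-like activity (chromosome 11, 70525324 to 70527858), had 3.61, 3.37 and 3.79 in WT and 3.35, 2.81 and 3.13 in KO. Psmb7, with trypsin-like activity (chromosome 2, 38588046 to 38643952), had 3.25, 3.11 and 2.62 in WT and 2.05, 2.5 and 1.96 in KO. Neither pair of groups overlapped on the list-median scale, though for Psmb6 the lowest WT value, 3.37, and the highest KO value, 3.35, nearly met.

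Psmb3, a structural beta subunit gene (chromosome 11, 97703434 to 97713500), had 4.29, 4.63 and 4.76 in WT and 4.4, 4.12 and 3.57 in KO. Psmb4, another structural subunit gene (chromosome 3, 94884324 to 94886958), had 2.64, 2.63 and 2.86 in WT and 2.05, 1.75 and 1.87 in KO, a log2 ratio of -0.52 ± 0.08 (SE). The groups overlapped at Psmb3 and did not at Psmb4, which was also lower in every KO library when divided by the median gene but not by the regions called in all 6 libraries or per M tags.

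All 6 ATPase genes of the regulatory particle had a peak in all 6 libraries, with mean WT heights of 2.42 to 4.32. Psmc1 had the lowest, at 2.86, 2.26 and 2.14 in WT and 2.20, 1.75 and 1.87 in KO. Psmc5 (chromosome 11, 106256185 to 106263112), which shares its promoter with Ftsj3, had 3.79, 4.37 and 4.00 in WT and 4.10, 3.94 and 3.78 in KO. Both genes had overlapping groups, and of the 6 genes Psmc3 and Psmc4 did not overlap on the list-median scale.

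All 14 Psmd genes had a peak in all 6 libraries, and 9 (64.3%) were lower in every KO library on the list-median scale. Over all genes that share was 55.3%. The median ratio of the 14 was -0.33, against -0.28 over all genes. Psmd2, which encodes a large scaffold subunit of the base (chromosome 16, 20651122 to 20663414), had the lowest ratio of the family, -0.66 ± 0.04 (SE). Its heights were 3.11, 3.0 and 3.21 in WT and 2.0, 1.875 and 2.0 in KO, from pileups of 87, 81 and 93 and of 40, 30 and 46 tags. The groups did not overlap, and the ratio lay near the 5th percentile of the 13004 genes, which was -0.66. Psmd2 was the 1 member lower in every KO library under 3 of the 4 divisors, the regions called in all 6 libraries included, although the groups overlapped per M tags, where WT had 6.66, 6.27 and 6.11 and KO 4.87, 6.35 and 4.46.

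Psmd7, a lid subunit gene (chromosome 8, 107580380 to 107588482), followed with 3.11, 3.56 and 3.55 in WT and 2.70, 2.12 and 2.13 in KO, a ratio of -0.56 ± 0.13 (SE). Psmd7 was also lower in every KO library when divided by the median gene. Its groups overlapped when divided by the regions called in all 6 libraries (ratio -0.21 ± 0.10, SE) and per M tags (-0.19 ± 0.19, SE). Psmd14, which encodes the deubiquitinase that strips ubiquitin from the substrate (chromosome 2, 61711694 to 61800376), had 2.32, 2.89 and 2.59 in WT and 2.25, 1.5 and 2.04 in KO. The 2.32 of WT replicate 2 and the 2.25 of KO replicate 1 nearly touched. Psmd4, which encodes a ubiquitin receptor (chromosome 3, 95032688 to 95042614), was tall in both genotypes, with 4.46, 4.63 and 4.34 in WT and 4.4, 4.19 and 3.78 in KO, and its groups overlapped.

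Psmd5, Psmd9 and Psmd10 encode chaperones that help assemble the base and leave the finished particle. Psmd9 (chromosome 5, 123228190 to 123250126) had 2.71, 2.48 and 2.48 in WT and 1.90, 2.25 and 1.78 in KO, without overlap. Psmd5 and Psmd10 overlapped between the groups, with log2 ratios of -0.11 ± 0.07 and -0.21 ± 0.12 (SE, n = 3 against 3).

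The 4 activator genes all had a peak in all 6 libraries. Psme1 and Psme2 encode the interferon-inducible activator PA28 and lie close together on chromosome 14 (55578494 to 55581527 and 55587440 to 55591101). Psme1 had 2.75, 3.04 and 2.93 in WT and 2.45, 2.56 and 2.22 in KO, and Psme2 4.00, 4.11 and 4.17 in WT and 4.25, 3.75 and 3.39 in KO. The groups were apart at Psme1 and overlapped at Psme2. Psme3, which encodes the nuclear activator PA28 gamma (chromosome 11, 101316213 to 101323537), had 3.43, 3.85 and 3.66 in WT and 2.45, 2.81 and 2.39 in KO. At Psme4, the large activator PA200 gene, the lowest WT height was 2.46 and the highest KO height 2.45, so its groups barely parted.

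Of the 3 symbols that do not name a subunit, Psme3ip1 (chromosome 8, 94574940 to 94601962) was among the tallest, at 4.21, 4.56 and 4.41 in WT and 4.70, 4.25 and 4.09 in KO. Psmc3ip had a ratio of -0.40 ± 0.06 (SE) and groups apart on the list-median scale.

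Peak numbers differed little at these genes. The libraries held 60, 62 and 61 peaks at the 44 genes in WT and 56, 55 and 58 in KO, and 25 of the genes had exactly 1 peak in each library. Of the 42 genes with a peak in any library, 3 (7.14%) had fewer peaks in all KO libraries than in any WT library and 0 had more, where the shares over 14959 genes were 12% and 0.488%. Psmd9 and Psme3ip1 had 3 peaks in each WT and 2 in each KO library, and Psme3 had 2 and 1. For each of the 3 the two-sided exact permutation test over 20 assignments of libraries gave p = 0.1, the smallest that 3 against 3 libraries can give. The labels do not say that replicates are separate mice, so such a p covers only variation among these libraries, possibly technical. With equal-length lists, made of the 37266 most significant peaks of each library, 0 genes had fewer peaks in every KO library (1.13% of all genes). Per 10000 peaks of a list, 11.3, 11.1 and 11.5 lay at the 44 genes in WT and 13.2, 14.8 and 13.6 in KO. The KO lists were shorter and held fewer peaks at these genes, so the higher share does not mean more peaks there. This share was not taken for other gene sets.

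**Figure D4:**
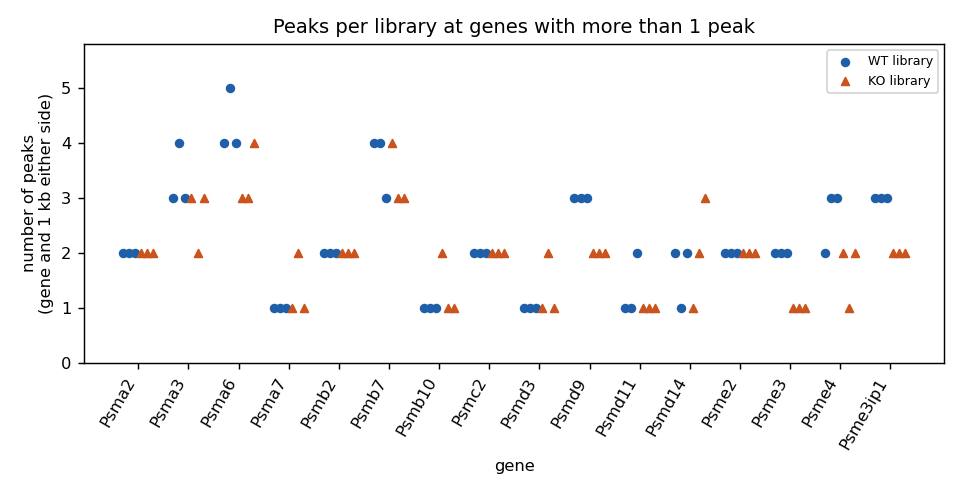
Peaks per gene, 1 kb flanks included, in each library (circles WT, triangles KO) for the genes with more than 1 peak in some library. Psmd9, Psme3 and Psme3ip1 are the 3 genes whose KO libraries all lie below their WT libraries; Psma6 has the most peaks, 5 in WT replicate 4.

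Peaks of all 6 lists merged into 67 regions at the 44 genes, of which 50 (74.6%) were called in all 6 libraries, 2 in all 3 WT and no KO library and 0 in all 3 KO and no WT library. Over the 42738 regions at all protein-coding genes the shares were 48.7%, 4.32% and 0.0164%. One of the 2 lies inside Psmd9 (chromosome 5, 123245533 to 123246010), with pileups of 15, 16 and 13 tags in WT, and the other just past the end of Psme3 (chromosome 11, 101323615 to 101323973), with 12, 14 and 17 tags. At Psme3ip1 it was not 1 region that went missing. A region missing from 1 KO list could also be tall, such as that of Psma3 at 70969807 to 70970124 on chromosome 12, with 51, 67 and 59 tags in WT, 42 in KO replicate 1, 51 in KO replicate 4 and no call in KO replicate 2. The Psme3ip1 region at 94584412 to 94584804 was called in KO replicate 1 alone of the KO libraries, and the one at 94594250 to 94594538 in KO replicates 2 and 4.

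Some genes carried further open regions inside the gene. Psma6 had 4, 5 and 4 peaks in WT and 3, 3 and 4 in KO, with inner regions between its start sites at 55388461 to 55388948, 55389244 to 55390176 and 55392863 to 55393368 on chromosome 12, of which the 55392863 region was called in all 6 libraries with 31 to 34 tags in WT and 14 to 20 in KO. Psmb7 had 3 or 4 peaks in each library, and its inner region at 38609950 to 38610742 on chromosome 2 had 53, 60 and 40 tags in WT and 29, 17 and 25 in KO. At Psmd14, a region 22606 bp past the start (61734300 to 61734674) was called in KO replicates 2 and 4 with 5 and 11 tags and in no WT library.

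The peaks of the family were about as long as those of other genes in WT. The median length of the tallest peak over the 41 genes was 1063, 985 and 942 bp in WT and 864, 814 and 913 bp in KO, against 993, 993 and 962 bp, and 815, 733 and 852 bp, for all genes. All KO peaks were shorter than all WT peaks at 20 of the 41 genes (48.8%) and longer at 0, where all genes gave 44.5% and 0.2%. By role, 5 of 7 alpha, 1 of 8 beta, 3 of 6 ATPase and 8 of 14 Psmd genes were shorter in every KO library. So were 2 of 4 activator genes and 1 of 2 of the other symbols. These counts are small. Psmd2 measured 844, 914 and 875 bp in WT and 751, 685 and 712 bp in KO, and Psmb6 held its length, with 823, 816 and 832 bp in WT and 840, 822 and 814 bp in KO. At Psmc2 the peak taken as tallest in WT replicate 4 was another region than in the other 5 libraries. The regions tied there at 71 tags, so the heights are those of 1 region but the lengths are not. 

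**Figure D5:**
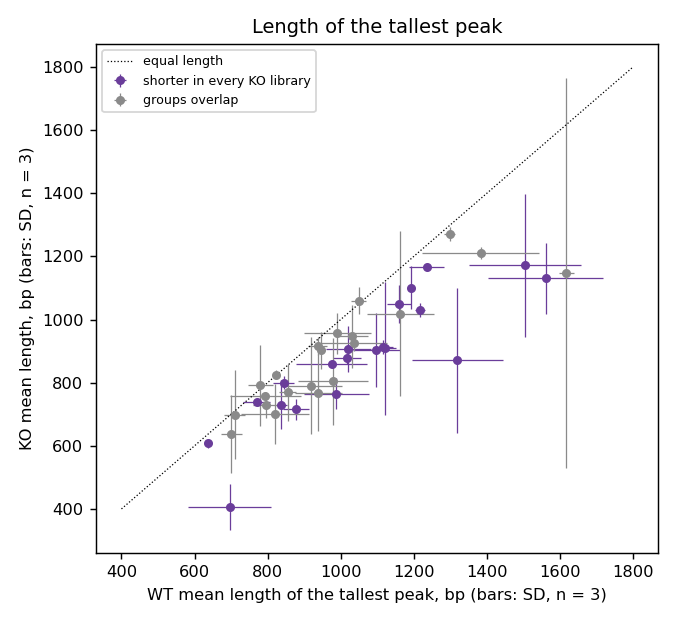
Mean length in bp of the tallest peak in KO (vertical) against WT libraries (horizontal) for the 41 genes with a peak in all 6 libraries, bars SD (n = 3 each). Most points lie below the dotted line of equal length, and purple marks the 20 genes that were shorter in every KO library; the grey point with the longest bar is Psmb10, whose peak was split in KO replicate 1.

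The machinery around the proteasome was looked at with the same measures in 33 other genes, among them assembly chaperones, inhibitor, bound deubiquitinases and ligases, shuttle factors, ubiquitin genes and Nfe2l1. All 33 had a peak in all 6 libraries. On the list-median scale 16 (48.5%) had a lower height in every KO library and 0 a higher one, with a median log2 ratio of -0.24, a direction that, for all genes, flips with the other divisors. Their number of peaks was lower in every KO library at 4 genes, Psmg1, Ube3a, Nfe2l1 and Ngly1. Nfe2l1, which encodes the transcription factor that drives proteasome genes, had 3 peaks in each WT and 2 in each KO library, and its tallest peak had a log2 ratio of -0.03. Ngly1, which encodes the enzyme that trims sugars off that factor, had 7, 7 and 6 peaks in WT and 4, 5 and 4 in KO. Nfe2l1 and Ngly1 were singled out after their values were seen.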

How the data were processed

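Peaks were called by the authors on each library alone, with no control, with MACS 2.1.1.20160309 at a q-value of 0.05, a shift of -100 bp, an extension to 200 bp and 1 tag kept per position, per the file headers. Per the submitters' processing notes the build was mm10, with Bowtie2 2.3.1 and Picard 1.88. The deposited pileup is a signal (coverage at the summit); the headers name a per-M-reads option, but all deposited pileups are whole numbers, so they were read as unscaled. The authors' −log10 p-value, their −log10 q-value and the fold enrichment ratio compare it with the local background of the same library. Keeping 1 tag per position limits how high a summit can rise in a deep library, and a fixed q-value lets a deeper library call weaker peaks. Tags after filtering were 4.72 to 15.2 M per library. A missing peak is one not called at that depth.

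Libraries were grouped by the titles. Peaks were matched to RefSeq gene spans (GRCm38.p6) with 1 kb flanks. Height, length and number were compared as sets of 3 against 3 that do or do not overlap, beside the same share over all genes. The tools were SciPy 1.17.1, pandas 2.3.3 and NumPy 2.4.6 under Python 3.11.15, with Matplotlib 3.10.9 for plots. The call of non-overlapping groups was tested on simulated heights. The counting of peaks at genes was checked against a direct count on real peaks. Other steps were not tested in this way. Named genes were those lacking a peak in some library, the 4 tallest and 4 lowest, those with non-overlapping peak numbers, the 3 highest and 3 lowest ratios, and 10 genes chosen by role; any other gene given with values was picked after its values were seen. The members and lists were chosen with earlier results of these data known. Alternatives were other windows, thresholds, list lengths, divisors and memberships, leaving out each library, and pairing by number. The division by the median gene was chosen after seeing the data. Some results for genes outside the family are not reported here.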

Additional observations from a re-analysis of the deposited data

How the results depend on the processing

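With 10 kb flanks, the number of genes with fewer peaks in every KO library was 7 (15.5% of all genes), with a stricter threshold (−log10 q-value of at least 10) 1 (16.8%), and with equal-length lists 0 (1.13%), against 3. Genes lower in height in every KO library numbered 41 with the stricter threshold (93.0% of all genes), 2 in equal-length lists (5.72%), 1 with the regions called in all 6 libraries as divisor, 0 per M tags and 3 with the median gene, against 24. Genes higher numbered 8 (20.6% of all genes), 8, 2 and 8 in the last 4 of these, against 0. The median log2 ratio was -0.49 with the stricter threshold, where that of all genes was -0.47, and turned to 0.071, 0.066, 0.089 and 0.030 in the other 4, against -0.28. In the stricter and equal-length lists the divisor is the median of the shortened list; the cause of these changes was not tested.

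Leaving out 1 library at a time gave 41 genes with a peak in all libraries left, 3 to 4 with fewer peaks (13.8% to 16.9% of all genes) and 0 with more, 24 to 33 lower (57.8% to 69.7%) and 0 higher in height, ratios of -0.31 to -0.24 (-0.31 to -0.25), 20 to 28 shorter (47.7% to 62.5%) and 0 to 1 longer (1 without KO replicate 2, the shallowest). Replicate numbers 2 and 4 occur in both groups, and as a replicate block these pairs gave 7 genes with fewer peaks (24.2% of all genes), 33 shorter (73.7%) and 34 lower in height (79.0%). The correlation of deviations was -0.0371 for the libraries numbered 2 and -0.0205 for those numbered 4, over 13004 genes. For libraries with different numbers it ran from -0.0223 to 0.0215. With so few libraries these values cannot decide whether the numbers pair the samples. Gene spans alone, summits in the window, summed heights and lengths, and leaving out Psmc3ip, Psme2b and Psme3ip1 (the last added to that alternative after seeing the data) gave counts within 1.5 times those reported.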
